A study of Homo sapiens with 2 samples.

Results

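Chromosome 19 carries several long stretches in which most genes encode zinc finger transcription factors. The nascent strand intervals that fall inside 5 of these stretches are described here. The stretches were set by position alone, in hg19: cluster 1 from 20 to 24.2 Mb on the short arm, and on the long arm cluster 2 from 36.7 to 38.3 Mb, cluster 3 from 44.3 to 45.0 Mb, cluster 4 from 52.4 to 53.9 Mb and cluster 5 from 56.6 to 59.1 Mb, near the end of the chromosome. An interval belongs to a cluster when its midpoint lies inside it. By this rule the clusters held 483 of the 8675 intervals on chromosome 19 and of the 161869 in the whole series, of which 161770 lie on chromosomes 1 to 22 and X. The intervals come from 2 libraries, replicates 1 and 2, of wild-type U2OS, an osteosarcoma cell line, collected at 2 h after release from a double thymidine block, which arrests cells before S phase. Nascent strands, the short new DNA at replication starts, were isolated by size and by digestion with exonuclease, to which RNA-primed strands are resistant. Per the deposited lists, the peaks of both libraries were intersected and each shared interval was placed in 1 of 6 replication timing classes, from very early to very late.

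Most genes in these stretches encode Krüppel-associated box zinc finger proteins, which bind DNA through arrays of C2H2 zinc fingers. Many of them silence transposable elements by recruiting the corepressor TRIM28 and histone H3 lysine 9 methylation. The genes arose by tandem duplication, and at several of the clusters the zinc finger exons are known to carry this heterochromatin mark themselves. Replication of the human genome follows a timing programme in which gene-rich, active chromatin tends to replicate early and heterochromatin late.

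In RefSeq, 265 of the 607 protein-coding genes with a zinc finger symbol (ZNF, ZFP, ZSCAN, ZKSCAN, ZIM, ZIK, ZBTB or PEG3) lie on chromosome 19 (43.7%), where they make up 18.4% of 1442 protein-coding genes. Gene positions in hg19 were not analysed here, so the genes that open and close each cluster are given from background knowledge and the genes between them from the RefSeq gene order (GRCh38.p14). In cluster 1, from ZNF93 to ZNF726, 32 of 34 genes have such a symbol, and ZNF91, ZNF43 and ZNF208 are among them. ZNF91 and ZNF93 are known repressors of the SVA and LINE-1 retrotransposons. Cluster 2, from ZNF146 to ZNF573, has 28 zinc finger genes of 29, and cluster 3, from ZNF283 to ZNF180, has 20 of 20. Cluster 4, from ZNF613 to ZNF525, has 32 of 37, and the other genes include PPP2R1A, the scaffold subunit of protein phosphatase 2A. Cluster 5, from ZNF444 to MZF1, is the most mixed, with 64 of 84, and also holds the imprinted gene PEG3, the kinase gene AURKC and TRIM28 itself.

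No test was run between stretches. Both libraries enter the lists as 1 intersected set, the labels do not say whether they came from separate cultures, and neighbouring intervals are not independent replicates of a stretch. The errors given are exact 95% binomial or Poisson intervals, which cover counting error only, or quartiles over intervals. The number of reads behind a peak is unknown, no undigested or unsynchronised control was analysed here, and the copy number of chromosome 19 in these cells was not analysed here. Both libraries were collected at 2 h after release, so the counts describe that time only. Whether the collection time bears on the lower counts in later-timed stretches was not tested.

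The zinc finger clusters held far fewer nascent strand intervals than the rest of the chromosome. They had 46.0 intervals per Mb (Poisson interval 42 to 50.3) over 10.5 Mb, against 183.9 per Mb (179.9 to 187.9) over the 44.6 Mb of the rest, a ratio of 0.25 (binomial interval 0.228 to 0.274). The clusters thus made up 19.1% of the length compared and held 5.57% of the intervals. Interval sequence covered 3.98% of the clusters and 20.4% of the rest. Density differed widely among the clusters, from 4.29 intervals per Mb in cluster 1 (2.54 to 6.77) to 106.0 in cluster 5 (93.6 to 119.6). Clusters 2, 3 and 4 lay between, with 39.4 (30.3 to 50.4), 48.6 (33.6 to 67.9) and 68.7 (56 to 83.3) per Mb. The counting intervals of clusters 2 and 3 overlap, as do those of clusters 3 and 4, while those of clusters 1 and 5 overlap with no other cluster. Cluster 1 had 40.0% of the length of the clusters and 3.73% of their intervals, and cluster 5 had 23.8% of the length and 54.9% of the intervals. Without cluster 1 the ratio to the rest was 0.401, and without cluster 5 it was 0.148.

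Against the 41 whole windows of 1 Mb in the rest of the chromosome, which held between 62 and 295 intervals with a median of 184, clusters 1, 2 and 3 were below every window. Cluster 4 was above 1 of these windows and cluster 5 above 3. Chromosome 19 is dense as a whole, so the same clusters stand differently in the genome. Over the 2842 windows of 1 Mb on chromosomes 1 to 22 and X that held any interval, the median was 26 intervals, and 13.8% of windows were sparser than cluster 1. Clusters 2 to 5 were denser than 59.3%, 63.4%, 70.8% and 79.1% of these windows, and the rest of chromosome 19 was denser than 92.6%.

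**Figure D1:**
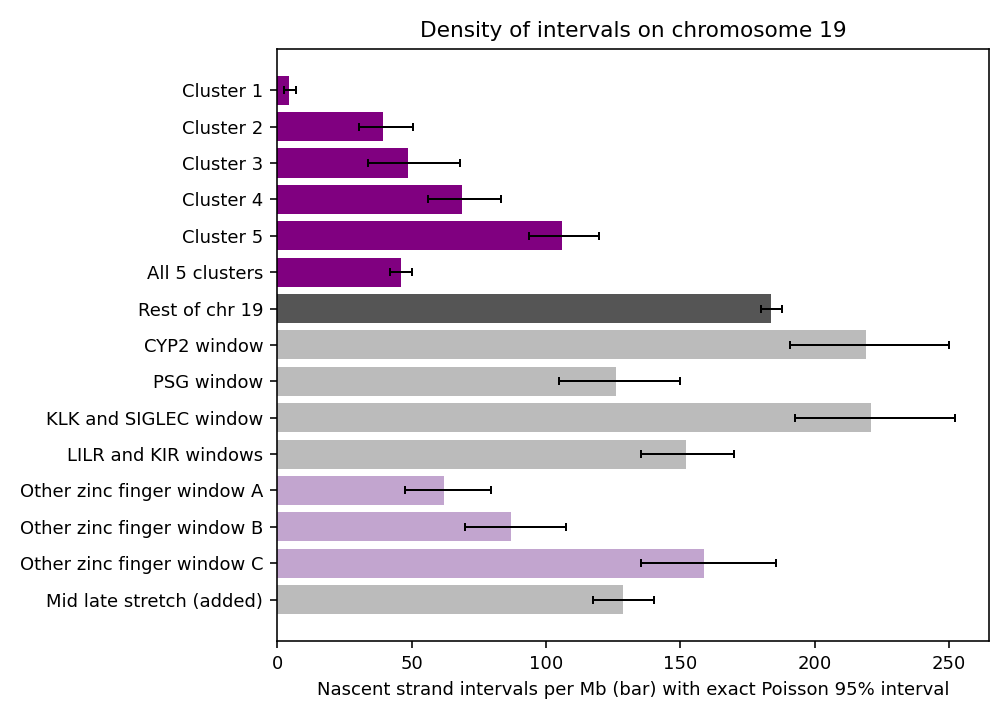
Intervals per Mb (horizontal axis, starting at 0) in each zinc finger cluster, in all 5 together, in the rest of chromosome 19 and in windows of the rest that hold other gene families. Bars are densities and lines are exact Poisson 95% intervals; cluster densities run from 4.29 to 106.0 and the rest has 183.9.

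The low density was already present among the peaks of replicate 1, before they were intersected with replicate 2. These peaks are numbered along the chromosome. The numbers from the first to the last kept peak of a stretch thus count the peaks between, assuming that they were numbered consecutively. Peaks beyond the outermost kept ones are missed, so the densities of the clusters are lower limits and their kept shares upper limits. In the rest, any numbers within the longest interval-free stretch are counted, although its length is left out. Replicate 1 had 11.7 peaks per Mb in cluster 1, 60.6 in cluster 2, 80.0 in cluster 3, 94.7 in cluster 4 and 167.2 in cluster 5, against 250.8 in the rest. Over all clusters the ratio to the rest was 0.289 by replicate 1 numbers, above the 0.25 of the shared intervals and their counting interval. In cluster 1 the ratio was 0.0465 by replicate 1 numbers against 0.0233 by shared intervals. A smaller share of these peaks was kept in the intersection in the clusters, 487 of 762 (63.9%, binomial interval 60.4% to 67.3%), than in the rest, 8259 of 11173 (73.9%, 73.1% to 74.7%). Cluster 1 kept 18 of 49 (36.7%, 23.4% to 51.7%), cluster 3 kept 60.7% (46.8% to 73.5%), cluster 5 kept 64.1% (59.3% to 68.7%), cluster 2 kept 66.0% (55.7% to 75.3%) and cluster 4 kept 72.5% (64.4% to 79.7%). The counting intervals of clusters 2 and 4 include the share of the rest.

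Intervals in the clusters belonged mostly to the later timing classes, with cluster 3 as the exception. Over all clusters 127 of 483 intervals (26.3%, binomial interval 22.4% to 30.5%) were very early, early or mid early, against 6982 of 8192 (85.2%, 84.4% to 86.0%) in the rest. Over chromosomes 1 to 22 and X the share was 70.0%. Mid late was the most frequent class in the clusters, with 302 intervals (62.5%), and it made up 13.4% of the rest. The clusters contributed 5.57% of the intervals of chromosome 19, but 21.6% of its mid late intervals (302 of 1400). For late intervals the share was 30.0% (48 of 160). All 6 very late intervals of the chromosome lay in the clusters (binomial interval 54.1% to 100%). The median −log10 q of their peaks was 3.37, against 4.92 over all intervals of the clusters. At the other end the clusters contributed 1.09% of the very early intervals (17 of 1554) and 0.932% of the early ones (28 of 3005).

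Cluster 1 had no interval in the 3 earlier classes (0 of 18, which allows up to 18.5% by the binomial interval) and consisted of 9 mid late, 4 late and 5 very late intervals. Cluster 2 had 12 mid early, 43 mid late, 7 late and 1 very late interval, so 19.05% were in the 3 earlier classes (10.2% to 30.9%). Cluster 4 was similar, with 15 mid early, 64 mid late and 24 late intervals and 14.6% in the earlier classes (8.39% to 22.9%). In cluster 5, the earlier classes made up 24.9% (19.8% to 30.6%), from 11 early and 55 mid early intervals, beside 186 mid late and 13 late ones. The counting intervals of clusters 2, 4 and 5 overlap with each other. Cluster 3 held 17 very early and 17 early intervals and none of a later class, so all 34 of its intervals were in the 3 earlier classes (89.7% to 100%). In density it stood in the middle of the 5 clusters when each named interval was counted once. With every line counted, it had 50 lines. Its density ratio to the rest was then 0.330, against 0.317 in cluster 4. Without cluster 3 the earlier share of the clusters differed from that of the rest by −64.5 points, against −58.9 points with it.

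**Figure D2:**
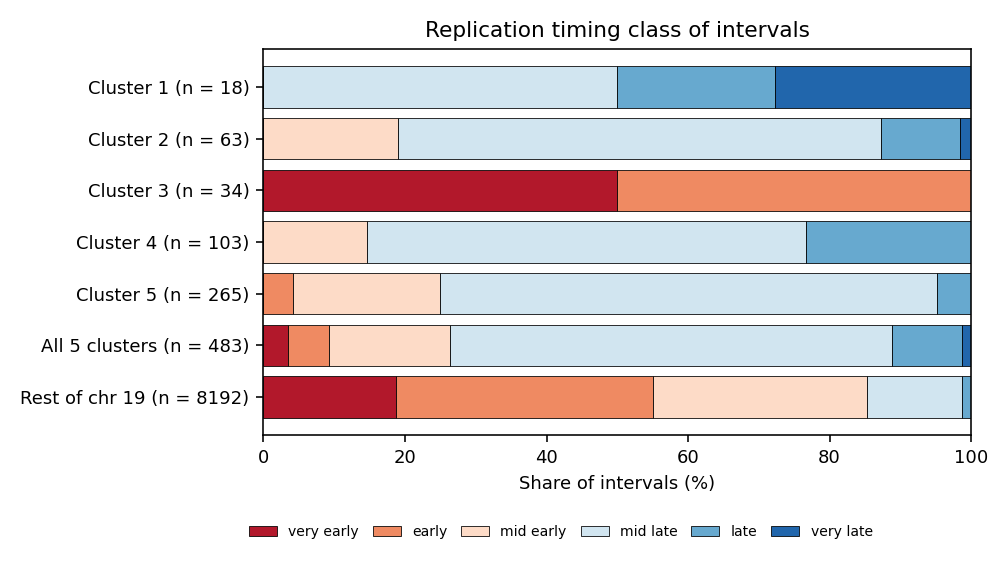
Share of intervals (%) in each of the 6 replication timing classes, for each cluster, all clusters and the rest of chromosome 19, with the number of intervals beside each name. Clusters 1, 2, 4 and 5 are mostly mid late or later, cluster 3 is all very early or early, and 85.2% of the rest lies in the 3 earlier classes.

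Among bins with the same most frequent timing class, the medians were also lower in the clusters than in the rest. The chromosome was cut into bins of 100 kb, and each bin that held an interval took its most frequent class. Mixed and tied bins were included, and the class of a sparse bin rests on few intervals. The bin of cluster 5 from 58300001 to 58400000, for example, was late by 1 of its 2 intervals. Mid late bins held a median of 5 intervals in the clusters (47 bins, quartiles 2 and 9) and 14.5 in the rest (70 bins, quartiles 8 and 20). By cluster, the median of mid late bins was 1 in cluster 1, 2 in cluster 2, 6 in cluster 4 and 9 in cluster 5. Late bins held a median of 4 in the clusters (11 bins) and 13.5 in the rest (8 bins). The early and very early bins of cluster 3 held a median of 4.5 (4 bins) and 2 (3 bins), where the rest had 22 (152 bins) and 16 (89 bins). The ranges of clusters and rest overlap in every class that both have. Bins with no interval have no class and are left out of this comparison, and they were 28 of the 42 bins of cluster 1, none of those of the other clusters and 1 of the 445 bins of the rest. A mid late stretch outside the clusters, from 29 to 33 Mb and chosen after its values were seen, had 128.5 intervals per Mb (117.6 to 140.1) with 5.06% in the 3 earlier classes.

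**Figure D3:**
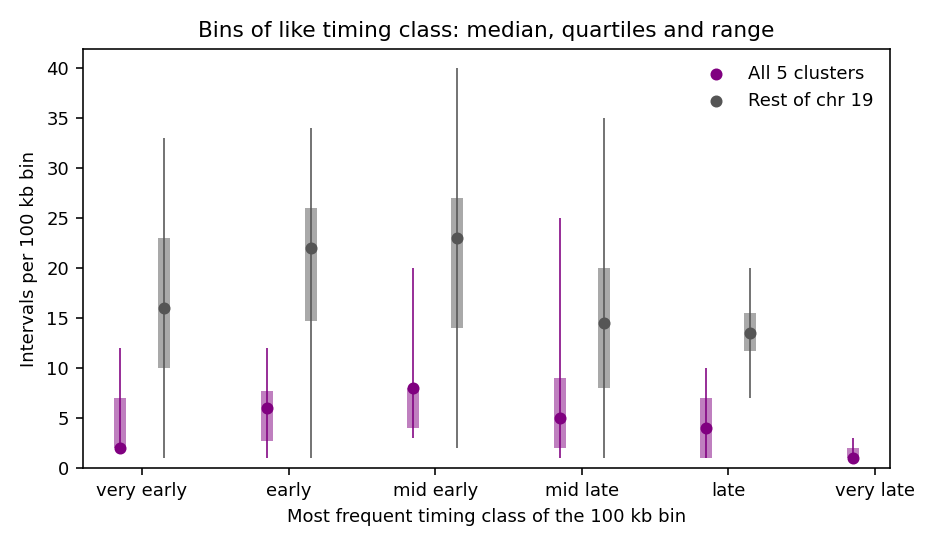
Intervals per bin of 100 kb (vertical axis) by the most frequent timing class of the bin, for the clusters and the rest of chromosome 19. Points are medians, thick bars quartiles and thin lines the range; the median of the clusters is lower in each of the 5 classes that both have, and very late bins occur only in the clusters.

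Density and timing changed at several of the borders, over 300 kb on either side. The 300 kb outside and the 300 kb inside each of 9 borders were compared, leaving out the right border of cluster 5 at the chromosome end. There were 76 intervals outside and 17 inside the left border of cluster 3, and 63 outside and 15 inside its right border, and all of these were in the 3 earlier classes. The counts outside were 4.47-fold and 4.20-fold those inside. Cluster 2 had 58 intervals outside its left border, all in the earlier classes, and 16 inside, of which 9 were. At its right border 46 intervals outside, 25 of them in the earlier classes, gave way to 12 inside, none of which was. Cluster 1 had 17 outside and 3 inside at its left border, with none in the earlier classes on either side, and its right border lies next to the interval-free stretch around the centromere. The left border of cluster 4 had 31 outside, 4 of them in the earlier classes, and 13 inside, with none. Its right border separated timing and not density, with 19 outside, all in the earlier classes, and 25 inside, of which 3 were. The left border of cluster 5 ran the other way in density, with 14 intervals outside and 48 inside. In timing it did not, with 7 of those outside and 4 of those inside in the earlier classes. The borders are set positions, and by the gene order some cut through runs of zinc finger genes. ZNF765, ZNF761, ZNF813 and ZNF331 follow ZNF525, the last gene of cluster 4, in the same run. ZNF577 and ZNF649 precede ZNF613, its first gene. Counts outside a border can therefore include stretches with zinc finger genes.

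**Figure D4:**
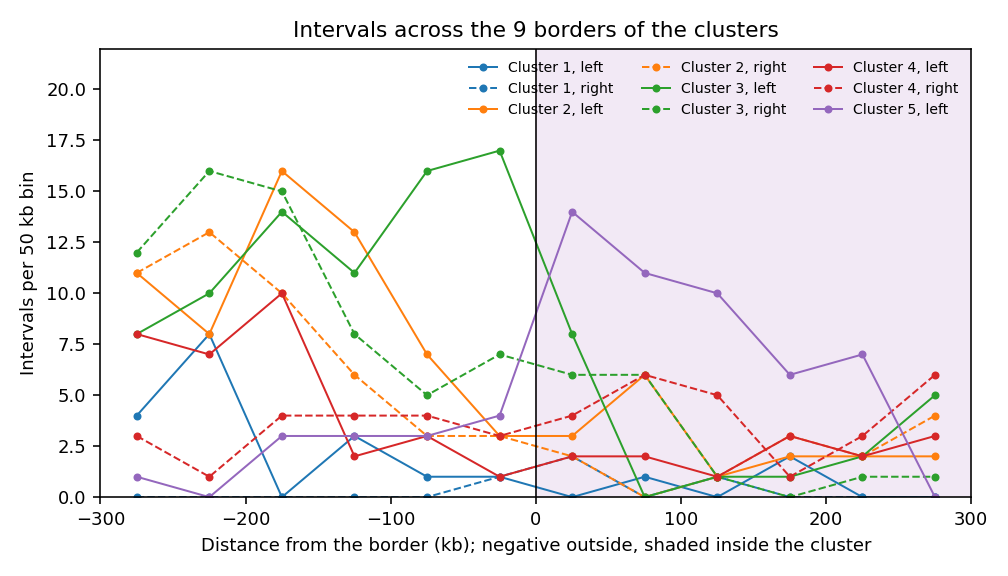
Intervals per bin of 50 kb (vertical axis) against distance from the border of a cluster (kb), negative outside and shaded inside, 1 line per border. At 6 of the 9 borders the 300 kb outside hold more intervals than the 300 kb inside. The exceptions are the right borders of clusters 1 and 4 and the left border of cluster 5. Borders are set positions, and some cut through runs of zinc finger genes.

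Cluster 1, home of ZNF91, was close to empty. Its 18 intervals lay a median of 118.8 kb apart, and 10 of the 17 distances between neighbours were over 100 kb, against 6 of 8186 in the rest. The longest was 1291 kb, between the interval that ends at 22807050 and the one that starts at 24097668. Its intervals were narrow, with a median of 238 bp (quartiles 213 and 376) against 724.5 bp in the rest, and 16 of them were between 153 and 654 bp wide. The exceptions were a pair near the right border, 2549 bp wide from 24183183 to 24185731 and 748 bp wide from 24186232 to 24186979. Enrichment ran from 3.54-fold to 8.15-fold with a median of 4.24. The highest value belonged to a very late interval of 211 bp from 22786557 to 22786767, and peaks of both libraries covered 89.6% of it. It was 1 of 5 very late intervals between 22610303 and 22807050, the run of 1 class with most intervals in the cluster, over 196.7 kb. The other 4 had 5.33-fold, 4.06-fold, 3.90-fold and 3.89-fold enrichment. The most isolated interval, mid late and 241 bp wide from 20660529 to 20660769, lay 253.5 kb and 795.4 kb from its neighbours. Next came a late interval from 20406754 to 20406988, 230.9 kb and 253.5 kb from its neighbours.

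Cluster 2 held the widest intervals of all the clusters, in 2 groups about 1 Mb apart. Of its 63 intervals 9 were 3 kb or wider (14.3%, against 6.12% in the rest), while cluster 5 had 5 and the other clusters none. The first group consisted of 5 mid late intervals between 36746476 and 36800709, and included the widest interval of the clusters, 17751 bp from 36782959 to 36800709, at 3.81-fold. The second consisted of 4 late intervals between 37759424 and 37795002, of 5373, 11684, 9979 and 6618 bp. Their enrichments were modest, from 3.50-fold to 6.71-fold over the 9 intervals, with a median of 4.09. Shared peaks covered a median of 33.5% of their bases, from 19.5% to 95.4%, against 54% in the other 54 intervals of the cluster. The 9 intervals made up 68.6% of the interval sequence of the cluster, and its median width was 642 bp with them and 571.5 bp without. What sequence lies under these 2 groups was not analysed here.

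The most enriched intervals of cluster 2 were narrower and lay elsewhere. They were a mid early interval from 36908804 to 36909418 at 13.1-fold, a mid late one from 37637347 to 37637838 at 12.7-fold and a mid late one from 37463905 to 37464899 at 11.9-fold. The last was also among the 2 most isolated, 121.9 kb from its left neighbour and 34.3 kb from its right one. The other was a mid late interval at 3.71-fold from 37177963 to 37178770, 81.5 kb from the nearest neighbour. The classes of cluster 2 followed each other in blocks, from mid early and mid late at the left through a run of 10 mid early and a run of 20 mid late intervals over 614.0 kb to the late and very late intervals between 37742297 and 37825470. A run of 16 mid late intervals then reached to 38270072. The only very late interval, 160 bp wide from 37818953 to 37819112, had an enrichment of 2.94-fold, the lowest in the cluster.

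Cluster 3, with ZNF45, ZNF224, ZNF226 and ZNF180, was sparsest in and just right of its middle, and densest at its right end. Of 5 equal parts of its length, 140 kb each, the leftmost held 9 of the 34 intervals and the next 7, while the third held 3, its right neighbour 2 and the rightmost 13. With each border moved 100 kb inwards, 14 intervals remained and the ratio of its density to that of the rest was 0.154, against 0.264 as defined. Its intervals were narrow, with a median of 455 bp and none over 2707 bp. Peaks of both libraries covered a median of 70.8% of an interval, the largest share among the clusters, where cluster 2 had 51.2% and the rest 59.9%. The most enriched were an early interval from 44306102 to 44307201 at 11.3-fold, a very early one from 44977613 to 44978615 at 9.15-fold and an early one from 44563467 to 44563868 at 9.10-fold. The most isolated were a very early interval from 44418301 to 44418554, 69.7 kb from the nearest neighbour, and an early one from 44870653 to 44870811, 43 kb from it. Early and very early runs alternated along the cluster, and the run with most intervals had 8, very early, over 237.8 kb.

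Cluster 4, with ZNF83, ZNF320, ZNF160 and ZNF665, had the most even spread. Each of its 15 bins of 100 kb held between 4 and 10 intervals, and no distance between neighbours was over 66.8 kb. No interval reached 3 kb, the widest being 1823 bp from 53444563 to 53446385. Its top interval was the most enriched of all the clusters, at 29.1-fold, mid late and 720 bp wide from 53495293 to 53496012, with 89.0% of its bases in peaks of both libraries. The next were mid late intervals from 53775473 to 53776565 at 14.1-fold and from 53598148 to 53598665 at 13.4-fold. Its most isolated intervals, both mid late, had their nearest neighbours at 32.4 kb (from 52956856 to 52957381) and 24.4 kb (from 53660721 to 53662443). Mid late and late runs alternated from the left border to 53316835, and a run of 12 mid early intervals followed from 53320893 to 53450140. Mid late runs of 16 and 14, with 2 mid early intervals between them, came next. The last interval before the right border was mid early, from 53898835 to 53899596. The mid early intervals of this cluster had a median enrichment of 6.61-fold (n = 15, quartiles 4.63 and 8.65), against 4.45-fold in its mid late intervals (n = 64, quartiles 3.60 and 6.96), and the quartile ranges overlap.

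Cluster 5, which ends near the chromosome end, was the only one with bins as dense as the rest. Of its 25 bins of 100 kb, 4 held at least the median of the rest (20 intervals), and no bin of the other clusters did. Of 5 equal parts of its length, 500 kb each, the rightmost held 81 of the 265 intervals (162 per Mb), of which 43 were in the 3 earlier classes, and the middle one held 34 (68.0 per Mb), of which 5 were. TRIM28, UBE2M, CHMP2A and MZF1 are known to lie in that last stretch, where single-copy genes of general function stand among the zinc finger genes. The 11 early intervals were 3 between 56915242 and 56974837 and 8 between 58665494 and 58750070, and reached 11.6-fold. The run of 1 class with most intervals had 40, mid late, over 190.6 kb from 56617095 to 56807669, just inside the left border. Of the 6 intervals in the clusters with 20-fold or higher enrichment, 5 lay here, which is 1.89% of the intervals of this cluster against 2.10% in the rest. The top 3 were a mid early interval of 1024 bp from 56813603 to 56814626 at 25.5-fold, a mid early one of 971 bp from 58802458 to 58803428 at 24.8-fold and a mid late one of 307 bp from 57511891 to 57512197 at 24.2-fold. The widest was mid late, 4316 bp from 58905436 to 58909751. The most isolated were an early interval from 56915242 to 56915611 and a mid late one from 57832149 to 57832658, 57.9 kb and 36.1 kb from the nearest neighbour.

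**Figure D5:**
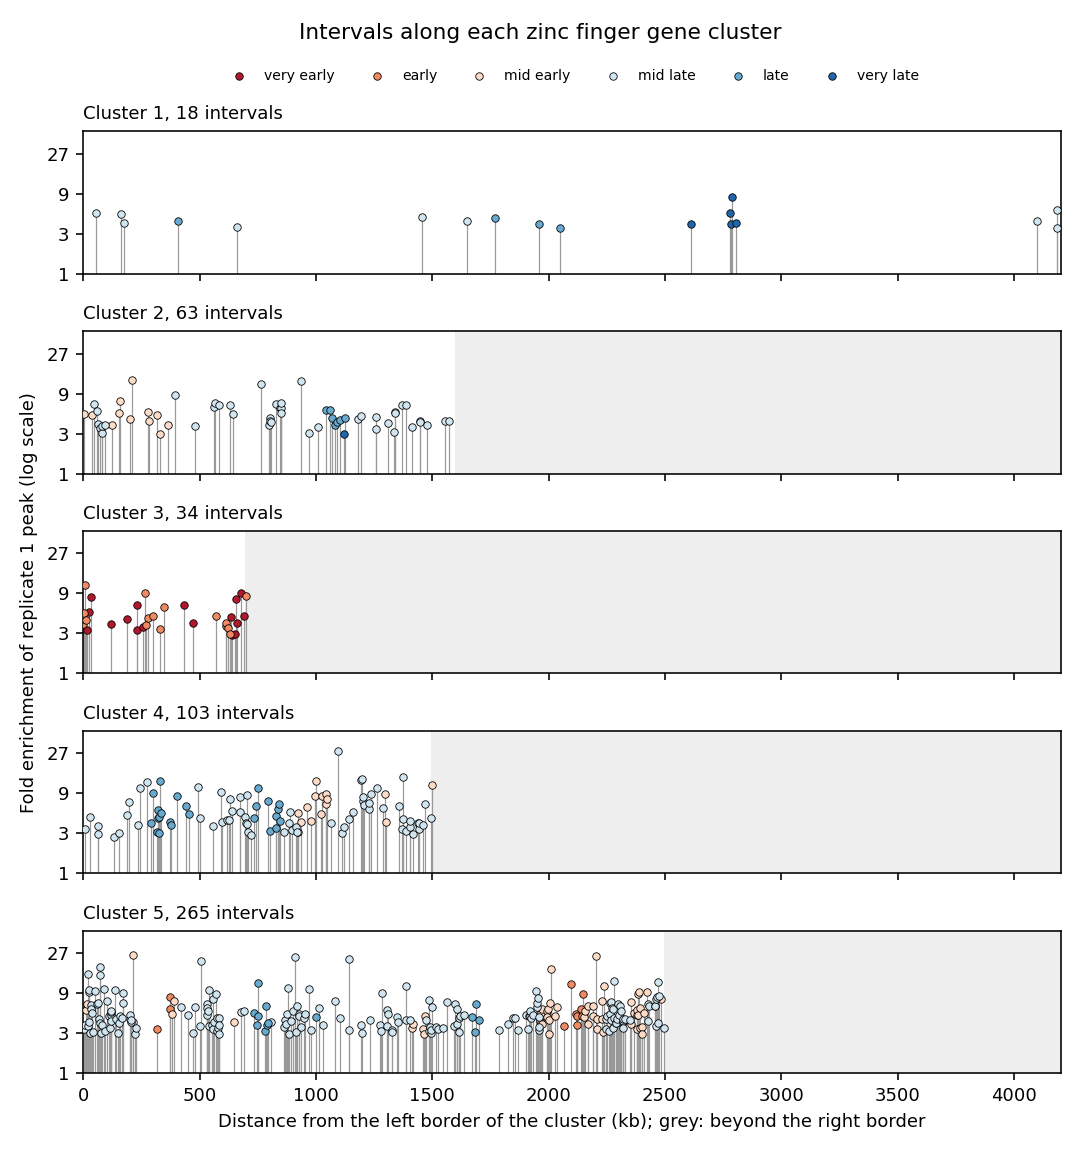
Every interval of the clusters by distance from the left border (kb) and fold enrichment of its replicate 1 peak (vertical axis, log scale), coloured by timing class. Cluster 1 is nearly empty over 4200 kb, cluster 3 holds 13 of its 34 intervals in its rightmost 140 kb, and the 29.1-fold interval stands out in cluster 4.

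Intervals in the clusters were narrower and less enriched than in the rest, by amounts well inside the spread between intervals. The median width was 587 bp (quartiles 306 and 975) against 724.5 bp (387 and 1401), a ratio of 0.81, and the median enrichment was 4.64-fold (3.77 and 6.33) against 5.37-fold (4.09 and 7.56), a ratio of 0.865. Over chromosomes 1 to 22 and X the medians were 558 bp and 4.73-fold. By cluster the median width was 238, 642, 455, 607 and 594 bp, and the median enrichment 4.24, 4.61, 4.46, 4.75 and 4.71, from cluster 1 to cluster 5. All 5 medians of each measure were below those of the rest. An enrichment of at least 20-fold was reached by 6 intervals of the clusters (1.24%) and 172 of the rest (2.10%). When peaks with a −log10 q below 5 were left out, the enrichment ratio was 0.928 over all clusters, and in cluster 4 it turned to 1.07 (51 intervals).

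The pooled medians had the same order within the 4 classes from very early to mid late. Mid late intervals had a median width of 602.5 bp in the clusters (n = 302) and 632.5 bp in the rest (n = 1098), and a median enrichment of 4.53 against 5.08. For mid early intervals the widths were 594.5 bp (n = 82) and 780 bp (n = 2468) and the enrichments 5.10 and 5.63. Single clusters differed from this order, with 660 bp for mid late intervals of cluster 2 and 6.61-fold for mid early intervals of cluster 4, both above the rest. Early intervals had 528 bp (n = 28) against 766 bp (n = 2977), and very early ones 432 bp (n = 17) against 675 bp (n = 1537), with enrichments of 4.83 against 5.45 and 4.41 against 5.19. Pooled late intervals went the other way, with 534.5 bp and 4.60-fold in the clusters (n = 48) and 513 bp and 4.13-fold in the rest (n = 112). Single clusters differed here too, with late medians of 271, 5373, 604 and 474 bp in clusters 1, 2, 4 and 5. Their late enrichments were 4.10, 4.59, 4.94 and 4.68, so cluster 1 was below the rest in both measures. The quartile ranges of the pooled clusters and the rest overlap in each class compared.

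Other stretches of chromosome 19 with duplicated genes were set beside the clusters, as windows of whole Mb that also hold unrelated genes. Zinc finger genes are also known between 9 and 10 Mb (around ZNF266 and ZNF121) and between 12 and 13 Mb (around ZNF44 and ZNF136). These windows had 62.0 and 87.0 intervals per Mb, or 33.7% and 47.3% of the density of the rest, and 62 was the lowest of all the windows in the rest. The share in the 3 earlier classes was 96.8% (88.8% to 99.6%) in the first and 60.9% (49.9% to 71.2%) in the second. A window from 35 to 36 Mb, taken as the place of the small ZNF302 group, had 159.0 per Mb with 89.3% in the earlier classes. Windows with other tandem gene families were denser than every cluster. The window from 41 to 42 Mb, with cytochrome P450 genes of the CYP2 family, had 219.0 per Mb, and that from 51 to 52 Mb, with kallikrein and SIGLEC genes, had 221.0. The pregnancy-specific glycoprotein genes, from 43 to 44 Mb, had 126.0 per Mb (105.0 to 150.02), all in the 3 earlier classes, and the counting interval overlaps with that of cluster 5. The leukocyte receptor genes LILR and KIR, from 54 to 56 Mb, had 152.0 per Mb (135.4 to 170.1), with 78.0% in the 3 earlier classes.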

How the data were processed

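The deposited files are 1 broad peak list and 6 lists of timing-classified intervals. Per the submitters' processing notes, reads were processed with BWA and MACS2 on hg19. Their parameters, any peak-calling control and the handling of reads that match several places, as near-identical gene copies give, were not found in the labels, and the part of such reads in the densities was not tested. In the deposited peak list the fold enrichment (a ratio) and the −log10 q belong to the whole replicate 1 peak, since peak names carry that library's number. The deposited score columns were not used.

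Each named interval was counted once and was given the fold of whichever replicate 1 peak had the largest overlap (minimum 1 bp), which 7 intervals of the rest lacked. The rest of chromosome 19 leaves out the longest interval-free stretch, from 24212519 to 28202114. Named intervals are, per cluster, the 3 of highest fold, the widest and the 2 farthest from both neighbours, and the run of 1 class with most intervals. The wide groups, the early and 20-fold intervals of cluster 5 and the bins by class were picked after values were seen. The members and lists were chosen with earlier results of these data known. A planned description of interval sequence and of intervals by gene was not run, since no hg19 genome or annotation was used here. Functions were checked on simulated data. Software was scipy 1.17.1, pandas 2.3.3 and numpy 2.4.6 under Python 3.11.15, with figures by matplotlib 3.10.9.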

Additional observations from a re-analysis of the deposited data

Results flagged for a closer look

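In the clusters, 4 pieces of the shared peak list, all in cluster 5, overlapped no classified interval. They were listed because they exceed the 3 that a count of 0 would allow, and they were 0.661% of 605 pieces, against 1.003% (107 of 10664) in the rest of chromosome 19.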

How the results depend on the processing

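Of 174 values recomputed under alternatives for 24 results, 161 moved by no more than 0.5 times the full width of their counting interval, although 8 of these lie outside the interval itself. Among the 8 are the density ratio of all clusters with borders 100 kb inwards (0.228) and, without peaks whose −log10 q was below 5, the width ratio of cluster 1 (0.218) and the density ratio of cluster 4 (0.300). The others follow, and their causes were not tested except where the alternative itself removes intervals or length. Without peaks whose −log10 q was below 5, the density ratio of all clusters to the rest was 0.199, that of cluster 1 was 0.0105 and that of cluster 5 was 0.452. The fold ratio was then 0.928 for all clusters and 0.921 for cluster 5, and it turned to 1.07 in cluster 4. With every line counted, where repeated names count more than once, the density ratio was 0.219 for all clusters and 0.489 for cluster 5. The 16 repeated names in the clusters all lie in cluster 3, whose ratio rose from 0.264 to 0.330, a move within the limit above. Over bins of 100 kb that hold an interval the density ratio of all clusters was 0.342. It was 0.401 without cluster 1 and 0.148 without cluster 5. Without cluster 3 the earlier share of the clusters differed from that of the rest by −64.5 points. Moving the borders 100 kb inwards gave 0.154 for the density of cluster 3. A minimum width of 200 bp, merging within 100 bp, membership only for intervals wholly inside, the highest fold among overlapping peaks, and a rest without its first and last 5 Mb or without other zinc finger windows moved no value computed under them by more than that. No paired analysis was possible because both libraries enter the lists as 1 intersected set, and for the same reason neither replicate could be left out of timing, width or fold. For density, the peak numbers of replicate 1 alone gave a ratio of 0.289 for all clusters and 0.0465 for cluster 1, against 0.25 and 0.0233. The number of reads per peak is unknown.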
